A study of Mus musculus with 19 samples.

Results

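The 6 genes followed here are known p53 targets grouped under arrest and growth control, although *Aen* encodes a nuclease that enhances apoptosis. They were measured in the 19 E13.5 neocortices of the series and are *Cdkn1a*, *Ccng1*, *Aen*, *Zmat3*, *Phlda3* and *Sesn2*, 6 of the 51912 genes counted. They were selected by name as p53 targets for arrest and growth control, and earlier results of these data, their rise after *Ino80* deletion, were known when they were selected. Their levels in cKO-E, and the difference of any group from cKO-E, are therefore given as a description with no test. The question left to test was whether the same genes lay below control when *Trp53* was deleted as well.

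RNA from micro-dissected cerebral cortex of embryonic day 13.5 mice on a mixed C57BL/6 and 129 background was sequenced, with 1 library per embryo. There were 7 control (ctrl) embryos, whose genotype is given only as control; 5 cKO-E embryos that carried *Emx1* Cre/+ with *Ino80* fl/fl; and 7 dKO-E embryos that carried the same alleles and were also *Trp53* fl/fl, so that the p53 gene was deleted in the same lineage. *Ino80* encodes the ATPase of a nucleosome remodeler. *Emx1* Cre recombines in cortical neural progenitor cells and their descendants and spares interneurons, microglia and vessels, so each cortex still held cells with intact *Ino80* and *Trp53*. Embryos came from 7 litters, and no litter held both cKO-E and dKO-E.

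p53 is a transcription factor that is held low in unstressed cells by Mdm2 and accumulates after DNA damage. It binds a pair of adjacent half-sites in or near its target genes. Its targets divide into genes that stop the cell cycle, genes that damp growth signals and genes that kill the cell, and in dividing neural progenitors all these arms can be engaged. *Cdkn1a* encodes p21, an inhibitor of cyclin-dependent kinases. *Ccng1* encodes cyclin G1, which acts with the phosphatase PP2A on Mdm2. *Aen* encodes a nuclease that enhances apoptosis. *Zmat3* encodes an RNA-binding zinc finger protein, *Phlda3* a pleckstrin homology domain protein that competes with Akt at the membrane, and *Sesn2* a sestrin that restrains mTORC1 when leucine is scarce.

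The promoter letters of these genes are shown first, because by design dKO-E differs from cKO-E in deletion of the p53 gene. The groups also differed in litter and in their make-up by sex and batch. RefSeq windows on GRCm38.p6, from 250 bases before to 50 bases after an annotated start, were found for 5 of the 6 genes; *Zmat3* had no entry. Both strands of the p53 full site read alike, and the site was sought as 2 half-sites of 10 letters with no spacer, the fixed C and G of each half-site intact and at most 3 mismatches at the other letters. In the lines below, capitals mark the matched 20 letters.

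*Cdkn1a*, chr17:29090903-29090972, plus strand: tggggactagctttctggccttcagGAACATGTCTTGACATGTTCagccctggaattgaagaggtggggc

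*Ccng1*, chr11:40755437-40755506, minus strand: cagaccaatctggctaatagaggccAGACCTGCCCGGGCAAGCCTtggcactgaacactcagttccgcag

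*Aen*, chr7:78895932-78895961, plus strand: aagccGGGCTTGTCCGGGCAAGGAGcttcc

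The *Cdkn1a* match had 1 mismatch and lay 51 to 32 bases before the upstream of its 2 annotated starts. The *Ccng1* match had 1 mismatch and lay 195 to 176 bases before its annotated start. The *Aen* match had 3 mismatches and lay 121 to 102 bases before the downstream of its 2 annotated starts. The same letters were in the window of the upstream start, where they lay after that start. No match was present in these windows of *Phlda3* or *Sesn2*, or in the second window of *Cdkn1a*. Of 27025 genes with a window, 22 (0.0814%) held a match with at most 1 mismatch, among them *Cdkn1a* and *Ccng1*, and 441 (1.63%) held one with at most 3. These are matches of letters, with no measurement of binding.

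On GRCm38, *Cdkn1a* (ENSMUSG00000023067.13) lies on chromosome 17 at 29090976 to 29100727 and *Ccng1* (ENSMUSG00000020326.7) on chromosome 11 at 40748552 to 40755311. *Aen* (ENSMUSG00000030609.18) lies on chromosome 7 at 78895854 to 78911209 and *Zmat3* (ENSMUSG00000027663.12) on chromosome 3 at 32334792 to 32366014. *Phlda3* (ENSMUSG00000041801.5) lies on chromosome 1 at 135766119 to 135769136 and *Sesn2* (ENSMUSG00000028893.8) on chromosome 4 at 132492032 to 132510501. Values are summed over all exons of each gene. *Cdkn1a* shares 273 exonic bases with an opposite-strand transcript, AC167363.2, and reads there cannot be assigned to either gene where strand was not used in counting.

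Library totals ran from 820915 to 8095810 gene counts with a median of 2952788, so 3 counts were worth between 0.369 CPM (counts scaled to library size, per 1e6, with TMM factors) in the deepest library and 3.71 CPM in the shallowest, cKO-E embryo D. *Ino80* summed over the whole gene was 110 to 133 CPM in ctrl, 146 to 181 in cKO-E and 160 to 200 in dKO-E; exons outside the deleted part are counted, so this checks no label. *Trp53*, counted the same way, was 36.7 to 49.9 CPM in ctrl, 34.0 to 43.9 in cKO-E and 26.9 to 42.4 in dKO-E. Summed microglial markers did not overlap between ctrl (18.1 to 33.9 CPM) and cKO-E (44.8 to 66.5 CPM), with 13.7 to 26.2 CPM in dKO-E; 2 of 4 tested markers were called higher in cKO-E, and *Trem2* and *Tmem119* were at 0 in every ctrl library. Interneuron markers summed to 9.14 to 83.7 CPM in ctrl, 63.8 to 119 in cKO-E and 28.8 to 69.3 in dKO-E. Summed levels of the apical and intermediate progenitor, projection neuron, endothelial, meningeal and erythroid lists overlapped between all 3 groups, while 2 defining markers, *Sox2* and *Tubb3*, were at 0 in every library. The part of these cell types in the results below was not tested, and in whole tissue more cells of a type and more RNA per cell cannot be told apart.

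Compared per kilobase of exonic length, the 6 genes fell into a higher and a lower trio in ctrl. *Aen* was highest at 6.18 ± 0.37 CPM per kb (SD, n = 7), followed by *Zmat3* at 4.04 ± 0.50 and *Ccng1* at 2.98 ± 0.50, and the embryos of each of these genes lay above all embryos of the next. *Sesn2* at 0.65 ± 0.28 CPM per kb, *Phlda3* at 0.62 ± 0.36 and *Cdkn1a* at 0.25 ± 0.17 were lower, and neighbours in this trio overlapped. In cKO-E the order by mean became *Aen*, *Ccng1*, *Zmat3*, *Phlda3*, *Sesn2* and *Cdkn1a*, from 14.1 to 2.82 CPM per kb. *Cdkn1a* was thus last by length-corrected level in all 3 groups, although its fold change in cKO-E was the largest of the 6.

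**Figure D1:**
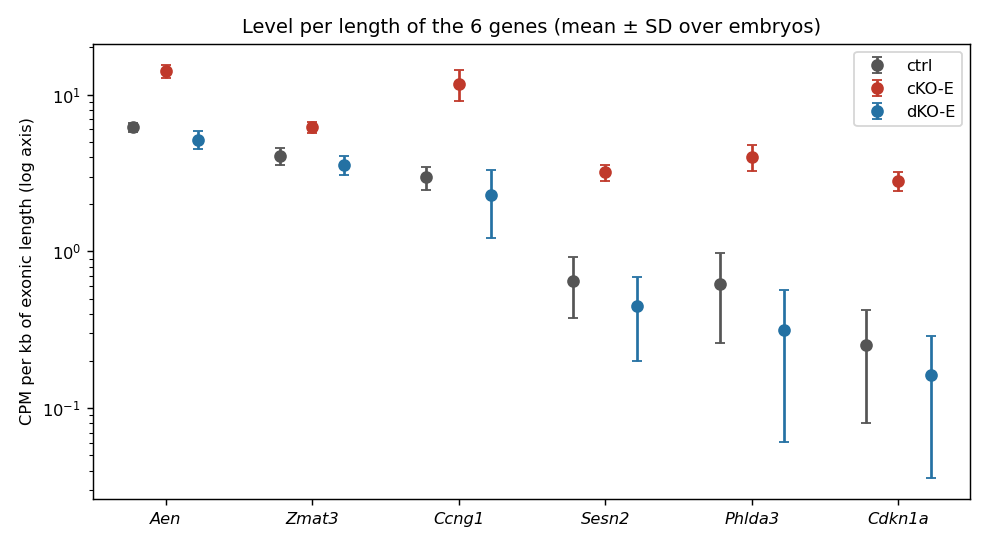
Mean CPM per kilobase of exonic length (log axis) of the 6 genes in ctrl (n = 7), cKO-E (n = 5) and dKO-E (n = 7); bars are the SD over embryos, shortened at the bottom where the SD would reach 0. *Aen*, *Zmat3* and *Ccng1* are at 2.98 or more in ctrl, the other 3 genes at 0.65 or less.

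Beginning with the arrest gene, *Cdkn1a* was close to the detection limit without *Ino80* deletion. In ctrl its lowest, median and highest levels were 0, 0.995 and 1.67 CPM, from 0 to 5 counts per library; the 0 of ctrl embryo B allows up to 0.608 CPM (3 counts). In cKO-E it stood at 10.9, 10.4, 11.7, 8.65 and 8.43 CPM in embryos A to E, and in dKO-E the lowest, median and highest were 0, 0.471 and 1.35 CPM, where the 0 of dKO-E embryo G allows up to 3.24 CPM. Every cKO-E embryo lay above every ctrl and dKO-E embryo. The log2 fold change was 3.63 (SE 0.36) for cKO-E against ctrl and -3.69 (SE 0.31) for dKO-E against cKO-E. The 2 cKO-E embryos of batch 2, D and E, were the lowest, and the log2 fold change against ctrl was 4.13 (SE 0.44) within batch 1 and 2.68 (SE 0.53) within batch 2.

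*Ccng1*, the cyclin G1 gene, had a measurable level in every group. Its lowest, median and highest levels were 7.23, 11.3 and 12.4 CPM in ctrl and 4.44, 6.68 and 15.9 CPM in dKO-E. In cKO-E embryos A to E it reached 49.1, 42.8, 48.1, 25.9 and 39.5 CPM. The shallow library D, with 21 *Ccng1* counts, was the lowest of the cKO-E embryos, yet it remained above every ctrl and dKO-E embryo. The log2 fold change was 2.03 (SE 0.14) for cKO-E against ctrl and -2.54 (SE 0.19) for dKO-E against cKO-E.

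The genes of the nuclease and the RNA-binding protein, *Aen* and *Zmat3*, were the most abundant in ctrl and had the smallest relative rises. *Aen* was 92.3, 86.8, 77.7, 71.6 and 81.6 CPM in cKO-E embryos A to E. Its lowest, median and highest levels were 33.3, 36.1 and 38.9 CPM in ctrl, a spread of 6.03% (SD over mean), and 22.6, 30.3 and 35.1 CPM in dKO-E. The log2 fold change of *Aen* was 1.21 (SE 0.07) for cKO-E against ctrl and -1.44 (SE 0.09) for dKO-E against cKO-E. In CPM this was the largest gain of the 6, 46.2 CPM between the means.

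*Zmat3* stood at 64.3, 76.1, 70.0, 66.7 and 76.6 CPM in cKO-E embryos A to E. The lowest, median and highest were 40.6, 44.8 and 55.6 CPM in ctrl and 30.1, 41.1 and 45.8 CPM in dKO-E. cKO-E did not overlap either group. The log2 fold change of *Zmat3* was 0.65 (SE 0.09) for cKO-E against ctrl and -0.77 (SE 0.09) for dKO-E against cKO-E.

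The brakes on growth signalling, *Phlda3* and *Sesn2*, were low in ctrl and rose to several CPM in cKO-E. *Phlda3* was 7.25, 7.33, 5.11, 4.94 and 6.75 CPM in cKO-E embryos A to E, against a lowest, median and highest of 0.457, 0.664 and 1.96 CPM in ctrl. In dKO-E these were 0, 0.448 and 0.942 CPM, with no count in embryos E and G, whose libraries were the shallowest of the group and where 3 counts would be 2.51 and 3.24 CPM. For *Phlda3* the log2 fold change was 2.71 (SE 0.29) for cKO-E against ctrl and -3.26 (SE 0.32) for dKO-E against cKO-E.

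*Sesn2* was 12.2, 11.8, 8.75, 11.1 and 11.5 CPM in cKO-E embryos A to E. Its lowest, median and highest levels were 0.608, 2.29 and 3.36 CPM in ctrl and 0.737, 1.12 and 2.97 CPM in dKO-E. Embryo C, the highest cKO-E embryo for *Cdkn1a*, was the lowest for *Sesn2*, so the 6 genes did not rank the cKO-E embryos alike. The log2 fold change of *Sesn2* was 2.35 (SE 0.27) for cKO-E against ctrl and -3.05 (SE 0.27) for dKO-E against cKO-E.

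**Figure D2:**
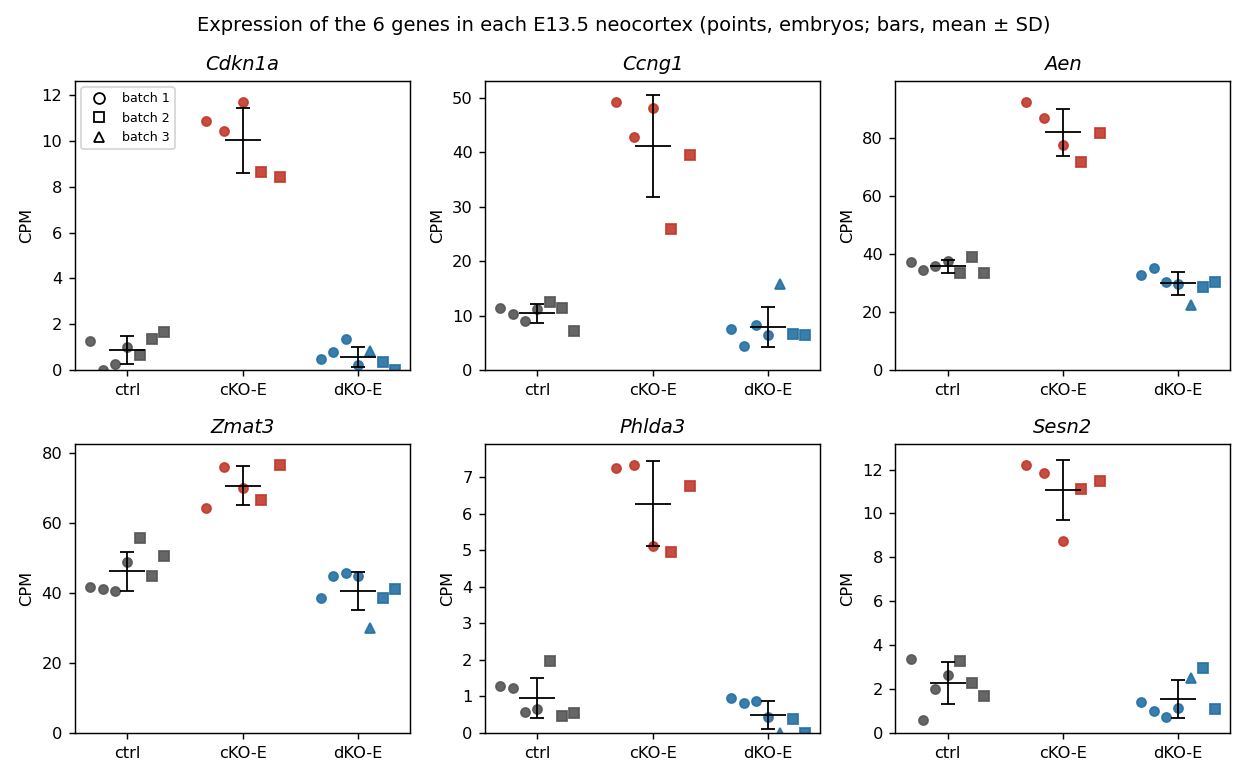
CPM of each gene in each embryo (points, shaped by batch) with the group mean and SD (bars), on linear axes from 0. All 5 cKO-E embryos lie above all ctrl and dKO-E embryos for each of the 6 genes, and the batch 3 dKO-E embryo (triangle) is the highest of its group for *Ccng1* at 15.9 CPM and the lowest for *Aen* at 22.6 CPM.

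In all 6 genes every cKO-E embryo lay above every ctrl embryo. Over the 11660 genes tested at a false discovery rate of 0.001 (edgeR quasi-likelihood test), 1.06% (124) were called higher and 2.32% (270) lower, where scaling by total counts gave 160 and 198, and 3.19% had every cKO-E embryo above every ctrl embryo. In all 6 every dKO-E embryo also lay below every cKO-E embryo, against 4.64% of 11746 genes. Because the genes were known to rise in cKO-E when they were selected, nothing is read from these counts. Within litters 4, 5 and 7, which held both ctrl and cKO-E, and within batches 1 and 2, the cKO-E embryos were above the ctrl embryos for all 6 genes. The change of *Cdkn1a* in batch 2 minus that in batch 1 was -1.41 (SE 0.86) on the log2 scale, the widest such estimate of the 6.

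**Figure D3:**
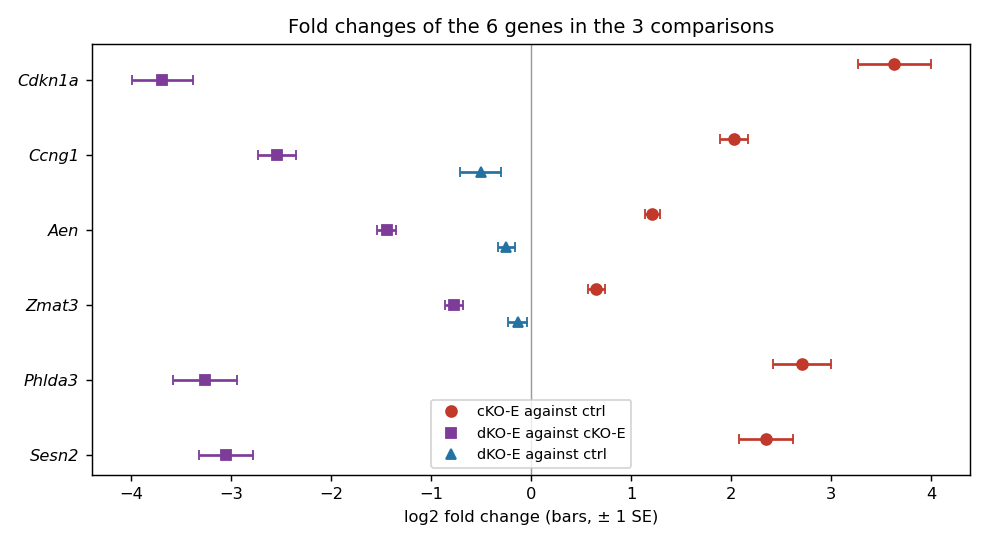
Log2 fold changes of the 6 genes with 1 SE on each side for cKO-E against ctrl (circles), dKO-E against cKO-E (squares) and dKO-E against ctrl (triangles, only the 3 genes with enough counts). The circles run from 0.65 for *Zmat3* to 3.63 for *Cdkn1a*, and the triangles lie between -0.50 and -0.14.

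Against ctrl, dKO-E gave a lower mean CPM for all 6 genes, but none was called lower. Of all 11381 genes tested, 48.6% had a log2 fold change below 0. For *Cdkn1a* the pooled counts of dKO-E and ctrl gave a ratio of 1.01. This comparison shares its ctrl embryos with the one in which the genes were known to rise, and the direction of interest, dKO-E below ctrl, was set with those results known. *Ccng1*, *Aen* and *Zmat3* had enough counts for the fit over 11381 genes, and *Cdkn1a*, *Phlda3* and *Sesn2* did not. With 0.001 as the threshold, 0 of the 3 tested genes were called lower, beside 2.34% of all genes tested, and 0.246% of all were called higher. These are 266 genes lower and 28 higher, where scaling by total counts in place of TMM factors gave 118 and 80. At 0.05, 0 of 3 were called beside 10.01% of all genes, although unadjusted p was under 0.05 for *Ccng1* and *Aen*. The likelihood-ratio test and DESeq2 likewise called 0 of 3 at 0.001; at 0.05 the former called *Aen* and the latter none of the 3.

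The *Aen* mean was 29.9 ± 3.9 CPM (SD, n = 7) in dKO-E and 35.8 ± 2.2 CPM (n = 7) in ctrl, and 6 of 7 dKO-E embryos lay below every ctrl embryo. The log2 fold change was -0.25 (SE 0.08, 95% interval -0.41 to -0.08), with an adjusted p of 0.0547 (edgeR quasi-likelihood, Benjamini-Hochberg over all genes). Litter 2, with 4 of the 7 dKO-E embryos, held no ctrl embryo, and litter 1 was the only litter with both groups. A fit with litter as block therefore compares the groups within litter 1 alone. With litter as block the log2 fold change was -0.14 (SE 0.13, adjusted p = 0.584, edgeR), and scaling by total counts gave -0.15. Within litter 1, where 3 dKO-E and 2 ctrl embryos were littermates, the *Aen* means were 32.8 and 35.8 CPM and the embryos overlapped.

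*Ccng1* showed a larger but less even difference. The mean was 7.98 ± 3.69 CPM (SD, n = 7) in dKO-E and 10.5 ± 1.8 CPM (n = 7) in ctrl, a log2 fold change of -0.50 (SE 0.20, 95% interval -0.91 to -0.10) with an adjusted p of 0.103 (edgeR). One embryo set this spread: dKO-E embryo E, the only library of batch 3, had 15.9 CPM from 19 counts, above every ctrl embryo, while the next dKO-E embryo had 8.36 CPM. Without it the log2 fold change was -0.64 and the adjusted p was 0.0197 (edgeR), still not past 0.001. Without dKO-E embryo B, the lowest, the log2 fold change was -0.36 and the adjusted p was 0.229 (edgeR). With litter as block, which compares the groups within litter 1 alone, these were -0.67 and 0.225 (edgeR). Within batch 1, dKO-E ran from 4.44 to 8.36 CPM (n = 4) and ctrl from 9.09 to 11.4 CPM (n = 4). Within batch 2, dKO-E was at 6.49 and 6.68 CPM and the lowest of 3 ctrl embryos at 7.23 CPM. The littermates of litter 1 were likewise apart in *Ccng1*, with means of 6.78 CPM in dKO-E and 10.9 CPM in ctrl.

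*Zmat3* had the smallest difference, -0.14 on the log2 scale (SE 0.09, 95% interval -0.32 to 0.05), with an adjusted p of 0.358 (edgeR). The means were 40.6 ± 5.5 CPM in dKO-E and 46.2 ± 5.7 CPM in ctrl (SD, n = 7 each), and the groups overlapped. With litter as block, which again compares the groups within litter 1 alone, the sign turned (0.063, adjusted p = 0.833, edgeR). Within batch 1 the fitted log2 fold change of *Zmat3* was 0.023 (SE 0.10), within litter 1 it was 0.055 (SE 0.13), and within batch 2 it was -0.34 (SE 0.16). The interaction of genotype with batch was -0.38 (SE 0.18) with an adjusted p of 0.421 (edgeR), so a difference between batches was not shown.

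**Figure D4:**
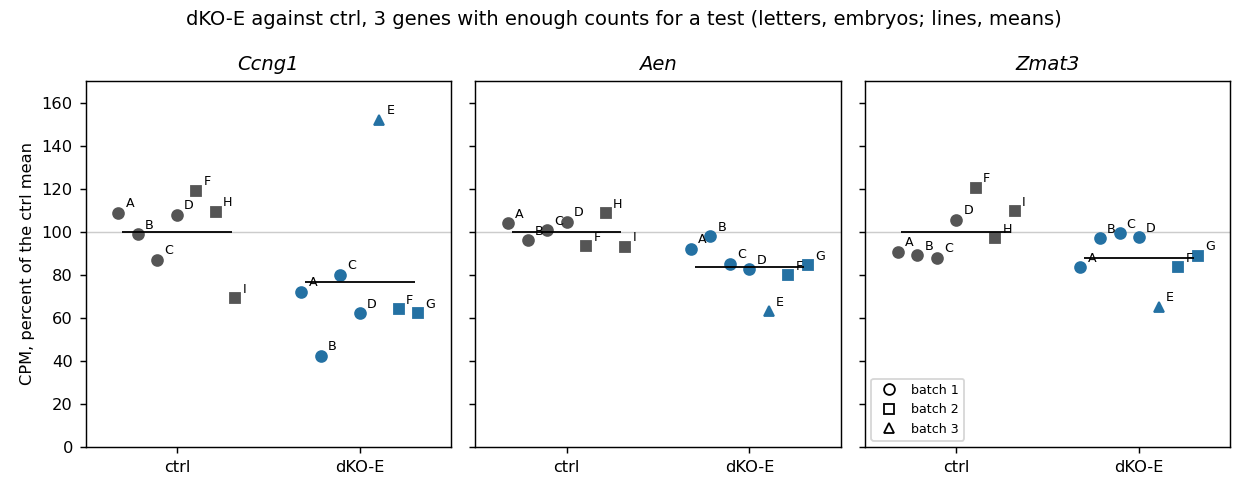
CPM of *Ccng1*, *Aen* and *Zmat3* in each ctrl and dKO-E embryo as a percentage of the ctrl mean, with letters naming embryos, shapes giving the batch and lines the group means. Except for embryo E, the *Ccng1* points of dKO-E lie at or under 8.36 CPM; 6 of 7 *Aen* points lie below all ctrl points, and the *Zmat3* groups overlap.

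For the 3 low genes the depth set the limit. *Cdkn1a* had 19 counts in all dKO-E libraries together and 16 in all ctrl libraries. Its mean was 0.580 ± 0.453 CPM in dKO-E and 0.895 ± 0.609 CPM in ctrl, a difference of -0.315 CPM (exact permutation p = 0.286, two-sided, where the smallest p that the 3432 splits allow is 0.000583), whereas the ratio of the pooled counts was 1.01 (95% exact interval 0.49 to 2.10, counting error only). The pooled ratio leaned on embryo C, the deepest library, with 11 of the 19 counts. A basal difference in *Cdkn1a* was not detectable at this depth in either direction.

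*Phlda3* had 16 counts in dKO-E and 20 in ctrl, with means of 0.490 ± 0.395 and 0.959 ± 0.554 CPM, and the exact permutation p was 0.0897 (two-sided). *Sesn2* had 31 counts in dKO-E and 44 in ctrl, with means of 1.55 ± 0.85 and 2.26 ± 0.96 CPM and an exact permutation p of 0.164 (two-sided). Over 14 runs that each left out 1 embryo, the *Sesn2* p ran from 0.0460 to 0.291 (exact permutation). The smallest was without ctrl embryo B, which had 3 *Sesn2* counts and the lowest ctrl level.

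Added over the 6 genes, dKO-E embryos ran from 71.9 to 87.6 CPM, ctrl embryos from 87.7 to 107 CPM and cKO-E embryos from 189 to 236 CPM. *Aen* and *Zmat3* make up most of this sum, and the highest dKO-E and the lowest ctrl embryo were nearly level. No test is given for the sum. Between male and female embryos, the dKO-E difference of the 3 tested genes did not differ detectably (adjusted p of 0.909 or more, edgeR interaction). The only female dKO-E embryos were A and B, both of litter 1 and batch 1, and all dKO-E embryos of litter 2 were male. Sex in dKO-E was thus tied to litter, and the estimates were wide, 0.71 (SE 0.43) for *Ccng1*. No gene was called for an interaction at a false discovery rate of 0.05: 0 of 11660 for batch in cKO-E, 0 of 11674 for batch in dKO-E and 0 of 11381 for sex in dKO-E, with 767, 1376 and 589 genes at an unadjusted p under 0.05 (edgeR quasi-likelihood; no other tool was run on interactions).

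None of the tested relatives of the 6 genes was called higher with them. Of 11 relatives 8 were tested; in cKO-E 0 were called higher and 1 lower, with a median log2 fold change of -0.14 beside 0.02 over all genes. The one called was *Sesn3*, a sestrin known as a FoxO target, which was 45.7 to 72.9 CPM in cKO-E and 88.3 to 112 CPM in ctrl; its log2 fold change was -0.62 with an SE of 0.10 (adjusted p = 0.000356, edgeR). In dKO-E *Sesn3* had a log2 fold change of -0.39 with an SE of 0.08 and did not pass 0.001 (adjusted p = 0.00214, edgeR). *Sesn1*, the sestrin known as a p53 target, was 111 ± 13 CPM in cKO-E (n = 5), 113 ± 12 CPM in dKO-E (n = 7) and 123 ± 10 CPM in ctrl (n = 7), and was called in neither mutant.

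The siblings of p21 behaved differently from *Cdkn1a*. *Cdkn1b*, which encodes the kinase inhibitor p27, was 63.5 ± 8.9 CPM in cKO-E and 80.6 ± 9.2 CPM in ctrl (log2 fold change -0.39, adjusted p = 0.00746, edgeR), and *Cdkn1c*, which encodes p57, was 26.8 ± 1.1 and 32.7 ± 4.3 CPM (adjusted p = 0.0522). Neither passed 0.001. *Ccng2* was 48.1 ± 4.2 CPM in cKO-E and 48.5 ± 6.2 CPM in ctrl, *Zmat1* 18.9 ± 2.2 and 16.2 ± 2.7 CPM, *Zmat4* 6.26 to 12.8 and 3.27 to 12.8 CPM, and the *Aen* relative *Isg20l2* 46.2 ± 4.6 and 51.5 ± 8.1 CPM. *Phlda1*, *Phlda2* and *Isg20* had too few counts to be tested, and *Phlda2* had none in any library.

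Among p53 itself and its regulators, 0 of 8 genes were called in either mutant. *Mdm2*, a p53 target that degrades p53, was 98.3 ± 11.4 CPM in cKO-E and 87.3 ± 3.4 CPM in ctrl (log2 fold change 0.15, adjusted p = 0.149, edgeR). In dKO-E the log2 fold change of *Trp53* was -0.36 (adjusted p = 0.0196, edgeR) and that of *Trp53bp1* was -0.25 (adjusted p = 0.00510). Both missed the threshold of 0.001.

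The other known p53 targets for arrest and growth were mixed. Of 25 on the list 19 were tested, with 0 called higher and 1 lower in cKO-E and a median of -0.09. *Rprm*, which encodes the G2 arrest protein reprimo, fell in cKO-E, from 39.9 ± 4.6 CPM in ctrl to 24.8 ± 4.0 CPM (log2 fold change -0.65, adjusted p = 0.000715, edgeR). In dKO-E *Rprm* was 26.9 ± 5.3 CPM (log2 fold change -0.54, adjusted p = 0.00241, edgeR), not past 0.001. *Btg1*, an antiproliferative gene, was 29.4 ± 5.6 CPM in cKO-E and 45.7 ± 5.2 CPM in ctrl (adjusted p = 0.00177), while *Trp53inp1* (99.2 ± 10.4 and 70.6 ± 9.6 CPM, adjusted p = 0.00212) and *Ptpn14* (8.74 to 16.9 and 1.99 to 12.4 CPM, adjusted p = 0.00289) were on the other side of ctrl; none of these 3 passed 0.001. In dKO-E 0 of 19 were called higher and 1 lower, with a median of -0.04.

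Several p53 targets for cell death rose in cKO-E along with the 6 genes. Of 12 on the list, 10 were tested in cKO-E, 5 were called higher and 0 lower, with a median of 0.63. *Eda2r*, a death receptor gene, rose from 1.95 ± 0.72 CPM in ctrl to 26.3 ± 5.8 CPM in cKO-E (log2 fold change 3.89, adjusted p = 7.94e-09, edgeR). *Bbc3*, which encodes Puma, rose from 1.85 ± 0.79 to 8.86 ± 2.13 CPM (log2 fold change 2.17, adjusted p = 1.89e-05). *Tnfrsf10b* rose from 1.90 ± 0.32 to 6.83 ± 1.12 CPM (adjusted p = 2.98e-05), and *Apaf1* from 61.5 ± 5.4 to 82.7 ± 5.7 CPM (adjusted p = 0.000963). *Pmaip1*, which encodes Noxa, was 0 to 0.457 CPM in ctrl and 3.65 to 8.57 CPM in cKO-E (adjusted p = 1.36e-06, edgeR). The lists were set up with earlier results of these data known, so their directions are not independent evidence. In dKO-E 6 of 12 were tested and 0 were called. *Eda2r*, *Bbc3*, *Pmaip1* and *Tnfrsf10b* were not among these, so they passed the count filter only through cKO-E, where they were high. The calls and medians of cKO-E and dKO-E are thus over different genes. *Eda2r*, too low to be tested in dKO-E, was 0 to 0.837 CPM in dKO-E and 1.01 to 2.78 CPM in ctrl. In dKO-E libraries 3 counts were worth up to 3.24 CPM, so an order of the groups was not detectable in the shallow ones.

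Genes that p21 is known to repress, through the DREAM complex, mostly had values below ctrl in cKO-E that did not pass the test. All 31 were tested; 30 had a log2 fold change below 0, beside 46.6% of all genes, and the median was -0.27 beside 0.02. At 0.05, 8 of the 31 were lower and 0 higher, beside 1152 of 11660 genes lower. At 0.001, 0 of the 31 were called higher and 1 lower, a share near the 2.32% of all genes. The tested apical (6 genes) and intermediate (4 genes) progenitor markers had medians of -0.35 and -0.32 in cKO-E, with 1 apical marker called higher and 0 of either list lower; their part in the list's values was not tested. The cell cycle gene called lower at 0.001 was *Mcm2*, a subunit of the replicative helicase. It fell from 118 ± 25 CPM in ctrl to 66.2 ± 7.5 CPM in cKO-E (adjusted p = 0.000434, edgeR). *Mcm2* fell in dKO-E too, to 70.7 ± 11.8 CPM (adjusted p = 0.000537, edgeR). A part of p21 in the *Mcm2* level of either mutant was not tested. The other *Mcm* genes were not called in either mutant. *Aurka* (adjusted p = 0.00260), *E2f2* (0.00574), *Mki67* (0.00711) and *Aurkb* (0.0103) came next in cKO-E without passing 0.001 (edgeR). In dKO-E the median of the list was 0.08, with 22 of 31 above 0.

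Growth signalling genes, the pathway on which *Sesn2* and *Phlda3* act, had a median of 0.02 in cKO-E and 0.06 in dKO-E over 26 tested genes. *Foxo3*, a transcription factor that Akt restrains, rose in cKO-E from 86.7 ± 7.6 to 124 ± 10 CPM (log2 fold change 0.50, adjusted p = 0.000117, edgeR) and was 68.1 ± 5.6 CPM in dKO-E (log2 fold change -0.37, adjusted p = 0.00130, not past 0.001). *Prkaa1*, an AMPK subunit gene, was 30.3 ± 5.5 CPM in cKO-E and 42.9 ± 2.2 CPM in ctrl (adjusted p = 0.00352). ATF4 is also known to activate *Sesn2*. Of 16 listed ATF4 targets 11 were tested and 0 were called in either mutant. In cKO-E their median was -0.09, with 5 above 0 and 6 below, and the remaining targets had too few counts to be tested. *Asns*, the ATF4 target gene of asparagine synthesis, was 13.8 ± 0.6 CPM in cKO-E and 10.5 ± 2.7 CPM in ctrl (adjusted p = 0.0712, edgeR). A part of ATF4 in the *Sesn2* level was not tested. Of 15 RNA decay genes, the pathway on which *Zmat3* acts, 14 were tested and 0 were called in either mutant, with medians of -0.05 and 0.04.

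**Figure D5:**
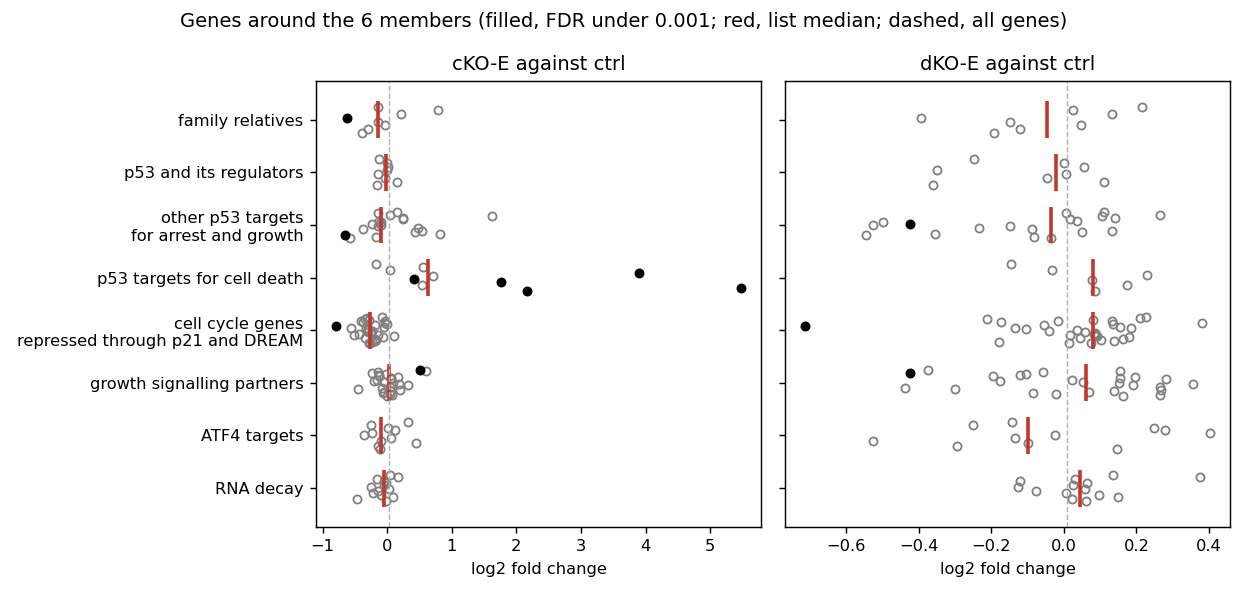
Log2 fold change against ctrl of the tested genes of each list in cKO-E (left) and dKO-E (right), whose axes differ in range; filled points passed a false discovery rate of 0.001, red lines are list medians and dashed lines the median of all genes. Cell death targets reach 5.48 in cKO-E (*Pmaip1*, not tested in dKO-E), and 30 of 31 cell cycle genes lie below 0 in cKO-E.

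Over all lists, which hold 140 genes, 121 were tested in cKO-E with 6 called higher and 3 lower, and 117 in dKO-E with 0 called higher and 2 lower. Among those higher in cKO-E, *Eda2r*, *Bbc3*, *Pmaip1* and *Tnfrsf10b* passed the count filter only through cKO-E. The lower calls in cKO-E were *Rprm*, *Sesn3* and *Mcm2*, and those in dKO-E included *Mcm2*. The lower calls depended on single embryos: in cKO-E 1 gene was called without ctrl A or F or without cKO-E A, B, C or D, and in dKO-E 1 gene was called without ctrl A or F or without dKO-E A, C, D, E, F or G.

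Which genes followed the 6 most closely was measured by the root mean square difference, over the 19 embryos, of log2 CPM centred on the ctrl mean, among 12047 genes; this is a description, with cKO-E setting most of the distance. Nearest to *Cdkn1a* were *Trp53cor1* (0.48), the lncRNA gene beside it, *Spp1* (0.51) and *Gm13067* (0.56), where the median gene was at 1.59. Nearest to *Ccng1* were *Sesn2* (0.47), *Bbc3* (0.51) and *Galntl6* (0.53), against a median of 1.11, and nearest to *Sesn2* were *Ccng1* (0.47), *Nrip3* (0.60) and *Galntl6* (0.60), against 1.21. The pair of *Ccng1* and *Sesn2* was the only one in which 2 of the 6 genes were each other's nearest. *Phlda3* had *Inka2* (0.52), *Ccng1* (0.60) and *Mpeg1* (0.61) nearest, against 1.25. *Mpeg1* is on the microglial list, which was higher in cKO-E as a sum.

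*Aen* was nearest to *Cntn5* (0.23), *Map3k20* (0.25) and *Ntng1* (0.28), against a median of 0.69, and *Zmat3* to *Ncam2* (0.18), *Epb41l4a* (0.20) and *Cerkl* (0.20), against 0.46. *Cntn5* stood at 297 CPM in ctrl, 585 in cKO-E and 283 in dKO-E by mean, and *Ncam2* at 378, 564 and 331 CPM.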

How the data were processed

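Click-seq libraries with unique molecular identifiers were made from rRNA-depleted total RNA, 1 per embryo. The authors trimmed reads with cutadapt 1.13, aligned them with STAR 2.5.2a to GRCm38/mm10, collapsed duplicates with UMI-tools 0.5.3 and deposited whole-number counts per GENCODE gene from HTSeq 0.6.1p1, without normalization. The GENCODE release and the strand setting are not given in the sources used here. Rows that name no gene were left out (per library, 4.96% to 12.5% of all counts fell in no feature, 1.78% to 2.07% were ambiguous and 14.9% to 20.9% not unique). Identifiers were matched without version to GENCODE M21, and 51633 of 51912 were found.

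Each pair of groups was fitted on its own with edgeR 4.0.16 (R 4.3.3): genes passing filterByExpr with a minimum of 10 counts, TMM factors, the quasi-likelihood test and Benjamini-Hochberg adjustment over all genes tested. A gene was called at 0.001, the threshold of the study, which used edgeR 3.20.9 and a likelihood-ratio test. Group means are of CPM scaled by TMM factors over all 19 libraries, and fold changes come from the fits, so their ratios differ slightly. Genes too low for the fit were compared by exact permutation over embryos. The 95% intervals on fold changes are 1.96 SE on each side, with the SE taken from the test statistic. They are narrower than an interval from the quasi-likelihood test itself and are not adjusted for the number of genes. Intervals on pooled counts cover counting error only. The fits were tested on simulated data. Alternatives were DESeq2 1.42.0, the likelihood-ratio test, other scalings and filters, batch, litter, sex and replicate terms, single batches or litters, and leaving out each embryo.

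The 6 genes and all lists were chosen with earlier results of these data known. Named genes are the 6, the targeted genes, their relatives, listed genes called at 0.001 or next by p, and the 3 genes nearest to each of the 6. Values of 1 listed gene are not reported here, although the list counts include it. Every embryo is a separate animal, but littermates share a dam.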

Additional observations from a re-analysis of the deposited data

Results flagged for a closer look

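*Ccng1* in dKO-E embryo E, the only library of batch 3, stood at 15.9 CPM, while the next of the 7 dKO-E embryos was at 8.36 CPM. It was singled out by Dixon's ratio, the gap to the nearest embryo over the whole range of the group, which was 0.658. This was 1 of 18 combinations of gene and group examined, and chance marks about 1 in 20. The same library was the lowest dKO-E embryo for *Aen* and *Zmat3* and held no *Phlda3* count. Batch 3 and this embryo cannot be told apart.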

How the results depend on the processing

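Under every alternative run, 0 of the tested genes were called lower in dKO-E at 0.001, also with the letter of the label as replicate block, and 0 with any single embryo left out. At 0.05 *Ccng1* passed with batch as covariate (log2 fold change -0.65, adjusted p = 0.0188, edgeR) and *Aen* by the likelihood-ratio test (-0.24, adjusted p = 0.0471). *Aen* also passed 0.05 without dKO-E embryo B (adjusted p = 0.0319). With total counts the median of all genes in dKO-E against ctrl moved from 0.01 to 0.10, and *Aen* from -0.25 to -0.15. *Zmat3* changed sign in batch 1 alone (0.023), in litter 1 alone (0.055) and with litter as block (0.063). These runs are not separate checks, because litter 1 lay within batch 1 and the litter block compares the groups within litter 1 alone.

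The median log2 fold change of the 6 genes was 2.19 in cKO-E against ctrl (2.06 to 2.30 without single embryos) and -2.79 in dKO-E against cKO-E (-2.89 to -2.69). It moved to 1.76 and -2.19 in batch 2 alone, where 5 of the 6 had enough counts. The letters shared by groups did not pair embryos: correlations of same-lettered deviations ran from -0.363 to 0.145, and the replicate block gave medians of 2.23 and -2.74.

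For the lists, leaving out single embryos was an alternative chosen after seeing the data. Genes called higher in cKO-E numbered 15 at 0.05, 11 by the likelihood-ratio test and 10 without a filter, and lower 16, 8 and 5; without single embryos 5 to 6 were higher and 1 to 3 lower. In dKO-E 6 were higher and 12 lower at 0.05, 1 and 6 by the likelihood-ratio test, and 1 lower with batch as covariate; without single embryos 0 were higher and 1 to 2 lower. Depth limits *Cdkn1a*, *Phlda3* and *Sesn2* in ctrl and dKO-E, with 0 to 13 counts per library.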
